A study of Mus musculus with 6 samples.

Results

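The lysyl oxidase family was followed in RNA of sorted mouse bone marrow cells. Its members, Lox, Loxl1, Loxl2, Loxl3 and Loxl4, were found by gene symbol, 5 of the 25955 entries in the expression table, and each symbol occurred once. Cells of C57BL/6 mice were released from digested marrow and sorted as CD44+CD51- (3 libraries) or CD51+ (3 libraries), numbered 1 to 3 in each group. The labels call all of them TNCs, without spelling the term out, and give neither age, sex nor how many animals a library holds. CD51 is integrin αV and CD44 is a receptor for hyaluronan. The 6 libraries give the contrast in RNA between cells with and without CD51. Nothing states that they came from separate animals, so a p-value here reflects the spread among libraries, which may be technical.

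Lysyl oxidases are secreted copper enzymes that turn lysine side chains of collagen and elastin into reactive aldehydes, which then join neighbouring chains into cross-links. Lox and Loxl1 carry a propeptide that is removed outside the cell, and Loxl2, Loxl3 and Loxl4 carry scavenger receptor cysteine-rich domains in its place. In bone, cross-links set by this family give the collagen fibril its strength.

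Bulk RNA cannot tell fewer cells of a type from less RNA per cell. Markers of several cell types differed between the groups together with the family, and their part in its levels was not tested. The summed RPKM (reads scaled to gene length and library size) of 8 mesenchymal stromal markers was 0.990 to 7.67 in CD44+CD51- libraries and 1425 to 2281 in CD51+ libraries, with all 8 called higher. That of 7 macrophage markers was 7.52 to 59.4 and 203 to 295, with 6 called higher. Osteolineage markers summed to 18.4 to 98.3 and 14003 to 19062 (8 of 8 tested higher), and neutrophil markers to 4061 to 20239 and 62713 to 66872 (5 of 5 higher). Erythroid markers summed to 1225 to 1405 and 451 to 657 (4 of 5 lower), and B lineage markers to 237 to 712 and 54.5 to 107 (5 of 5 lower). Of all genes tested, 24.1% were called higher and 29.7% lower. Among tested markers, 7 of the 8 stromal and 3 of the 8 osteolineage genes were below 1 RPKM in every CD44+CD51- library. Of the 1197 tested genes with that trait 99.5% were called higher, so these calls say little. Among the sorting genes, Itgav, which encodes CD51, was at 0.677 ± 0.244 and 7.01 ± 2.43, and Ptprc, the CD45 gene, at 3.25 ± 1.28 and 6.87 ± 0.643 (mean ± SD, n = 3, CD44+CD51- then CD51+). Cd44 was at 34.8 ± 2.57 and 31.5 ± 2.98, and Pecam1, the CD31 gene, at 2.16 ± 1.09 and 1.75 ± 0.441, and neither passed the test. CD44+CD51- replicate 2 stood apart, with the highest stromal, osteolineage, macrophage and neutrophil sums of its group. Its B lineage, endothelial, mural and chondrogenic sums were also the highest, and its erythroid and megakaryocyte sums were not. Levels and rates that rest on this library are therefore also given without it.

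All 5 members were higher in CD51+ cells and close to 0 in CD44+CD51- cells. In CD44+CD51- libraries no member was above 0.315 RPKM, and in CD51+ libraries none was below 3.29. Among all genes tested, 26.1% were likewise higher in CD51+ cells with no overlap between the groups. The 5 members entered the test through their CD51+ values only, so their separation is not particular to the family. Summed over the family, RPKM was 0.186, 0.800 and 0.424 in the CD44+CD51- libraries and 188, 268 and 184 in the CD51+ libraries. The groups were far apart in that sum (two-sided exact permutation p = 0.1, and no smaller value is possible with 3 libraries a group).

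**Figure D1:**
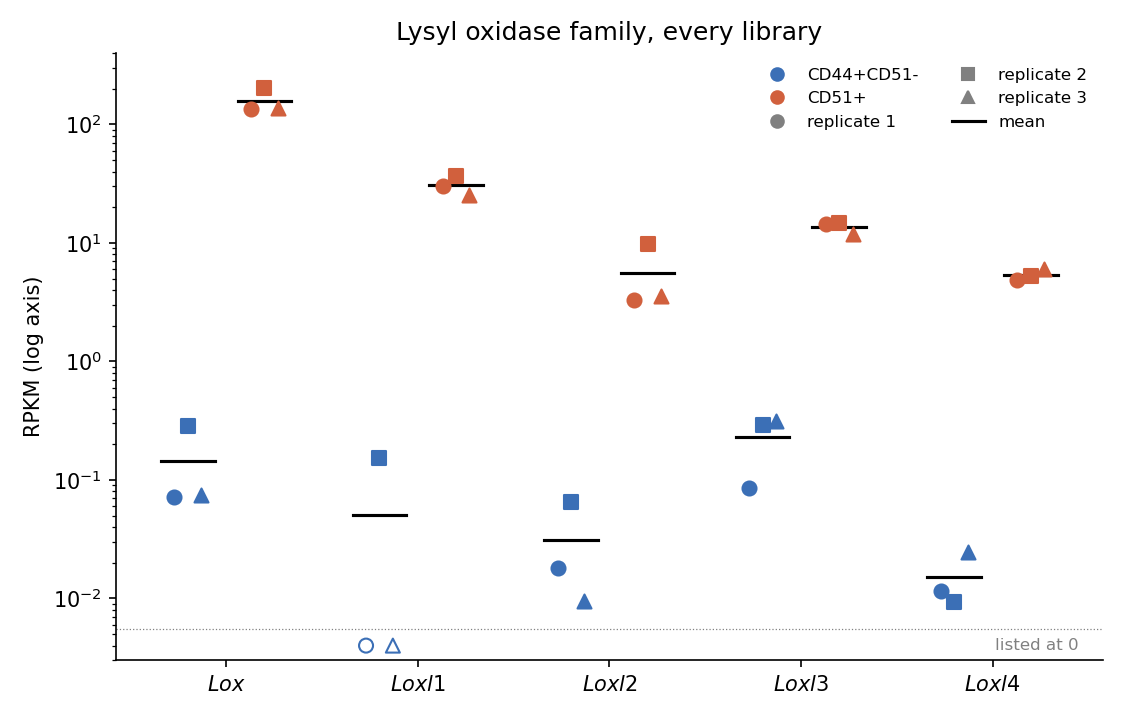
RPKM of each member in all 6 libraries on a log axis, with circles, squares and triangles for replicates 1, 2 and 3 and a bar at the group mean. Every CD51+ point of a gene lies above every CD44+CD51- point of it, as for 26.1% of all genes tested. Open symbols mark Loxl1 in CD44+CD51- replicates 1 and 3, which was listed at 0.

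Lox, the founding enzyme of the family and a cross-linker of fibrillar collagen, lies on chromosome 18, 52516067 to 52529867, minus strand (GRCm38). It was at 0.0712, 0.284 and 0.0753 RPKM in CD44+CD51- replicates 1, 2 and 3 and at 135, 201 and 138 in CD51+ replicates 1, 2 and 3. No value of one group came near the other. Its mean went from 0.144 ± 0.122 to 158 ± 37.6, a log2 change of 7.10 ± 0.20 (SE) on the log2(RPKM + 1) scale with an adjusted p of 3.7e-06 by limma. That change ranked 29 among 11741 genes tested. Without CD44+CD51- replicate 2 the mean of that group was 0.0732.

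Low RPKM values fell on steps of whole reads, so the reads behind them could be recovered. For Lox they came to 7, 35 and 7 reads in the CD44+CD51- libraries, with 95% exact Poisson intervals of 2.81 to 14.4, 24.4 to 48.7 and 2.81 to 14.4. In the CD51+ libraries they came to 7925, 31497 and 16059 reads. Such intervals cover counting error only. Pooled over libraries, the rate of Lox reads was 1073 times higher in CD51+ cells (95% exact binomial interval 811 to 1450.5). Replicate 2 held 35 of the 49 reads behind the CD44+CD51- rate, and without it the ratio was 2285 (1362 to 4181), outside the first interval. Pooled intervals, here and for the other members, treat the libraries of a group as alike. They too cover counting error only and leave out the spread between libraries.

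Loxl1, which works on elastin in elastic fibres, lies on chromosome 9, 58287738 to 58313186, minus strand. It was listed at 0, 0.152 and 0 RPKM in the CD44+CD51- libraries and at 30.2, 37.0 and 25.4 in the CD51+ libraries. The signal in CD44+CD51- cells thus came from replicate 2 alone, in which 13 reads were recovered. A count of 0 still allows a low level, and 3 reads in each of replicates 1 and 3 were set as a floor, or 0.0452 RPKM on average. The two-sided 95% exact Poisson limit for 0 reads is higher, at 3.69 reads. Over all libraries the pooled rate was 532 times higher in CD51+ cells (95% interval 311 to 999.98). Without replicate 2, the CD51+ mean of 30.9 ± 5.81 was 683 times the 3-read floor of replicates 1 and 3. The limit of 3.69 reads would give a smaller factor. The log2 change over all libraries was 4.91 ± 0.18 (adjusted p = 4.9e-06).

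Loxl2, an enzyme of the scavenger receptor branch that also acts on basement membrane collagen, lies on chromosome 14, 69609068 to 69695834, plus strand. Its level was 0.0181, 0.0651 and 0.00957 RPKM in the CD44+CD51- libraries, from 2, 9 and 1 reads, and 3.29, 9.81 and 3.55 in the CD51+ libraries, from 217, 1725 and 466 reads. The pooled rate was 190.2 times higher in CD51+ cells (109 to 369). Without CD44+CD51- replicate 2 the mean of that group went from 0.0309 to 0.0138 and the pooled ratio was 463 (158 to 2246), from 3 reads. CD51+ replicate 2 was the high one, at 2.87 times the mean of replicates 1 and 3, a ratio above that of 99.5% of 11437 genes with a mean of at least 1 RPKM in CD51+ cells. The same ratio was 1.48 for Lox, 1.33 for Loxl1, 1.13 for Loxl3 and 0.973 for Loxl4. Loxl2 rose by a log2 change of 2.53 ± 0.35 (adjusted p = 0.0012), or 2.10 without CD51+ replicate 2 (adjusted p = 0.00015), where its CD51+ mean went from 5.55 to 3.42 RPKM.

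Marker sums were set beside that library difference in CD51+ replicates 1, 2 and 3. The sum of 7 mural and smooth muscle markers was 18.4, 24.0 and 11.4 RPKM. That of 9 endothelial markers was 26.8, 35.6 and 23.3, with Cdh5, a defining endothelial gene picked after its values were seen, at 0.617, 0.532 and 0.165. The 8 stromal markers summed to 1764, 2281 and 1425. Each of these sums was highest in replicate 2, at 1.61, 1.42 and 1.43 times the mean of replicates 1 and 3, against 2.87 for Loxl2. For the other cell type lists that ratio ran from 0.0989 (megakaryocyte) to 1.22 (osteolineage). Plvap alone gave 18.1, 23.5 and 12.8 RPKM of the endothelial sum. Single genes differed from their sums. Mcam, a mural marker, was at 4.94, 1.03 and 0.664, and Rgs5, another, at 3.39, 8.91 and 3.93. The part of these cell types in the Loxl2 level was not tested.

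Loxl3, needed in mice for palate and spine development, lies on chromosome 6, 83034173 to 83052562, plus strand. It was at 0.0850, 0.289 and 0.315 RPKM in the CD44+CD51- libraries, from 8, 34 and 28 reads. In the CD51+ libraries it was at 14.4, 14.8 and 11.8. Replicate 3 was as high as replicate 2 in the CD44+CD51- group. The mean rose from 0.229 ± 0.126 to 13.7 ± 1.62, a log2 change of 3.57 ± 0.16 (adjusted p = 8.4e-06). The pooled rate was 58.7 times higher (46.4 to 75.4), and 69.5 times (50.1 to 99.3) without CD44+CD51- replicate 2.

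Loxl3 shares 535 exonic bases, 11.6% of its exon length in GENCODE M21, with Htra2 on the opposite strand. Htra2, a mitochondrial protease gene, was at 83.4, 72.4 and 76.6 RPKM in the CD44+CD51- libraries and at 33.1, 29.8 and 35.0 in the CD51+ libraries. The transposase-based library kit does not mark strand in its usual use, so reads from these shared bases could not be assigned to either gene by strand. Htra2 was high where Loxl3 was low, and its part in the small Loxl3 count of CD44+CD51- cells was not tested. Dok1 and Aup1, the other coding genes within 5000 bases of Loxl3, do not overlap it and were at 18.1 to 29.2 and 43.1 to 138 RPKM over the 6 libraries. Antisense genes share 30 exonic bases with Lox (AC161119.1, 0.628%) and 301 with Loxl2 (Gm27177, 5.57%), and no value was used here for them.

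Loxl4, also of the scavenger receptor branch, lies on chromosome 19, 42593982 to 42612813, minus strand. It was at 0.0116, 0.00928 and 0.0245 RPKM in the CD44+CD51- libraries, from 1, 1 and 2 reads. In the CD51+ libraries it was at 4.90, 5.30 and 5.99, the tightest of the 5 with an SD of 10.2% of the mean, against 11.8% for Loxl3, 18.8% for Loxl1, 23.8% for Lox and 66.5% for Loxl2. Pooled reads gave a rate 377 times higher in CD51+ cells, with a wide 95% interval of 147 to 1385 from 4 reads in CD44+CD51- cells, and 306 times (104 to 1485) without replicate 2. Loxl4 rose by a log2 change of 2.65 ± 0.13 (adjusted p = 1.1e-05).

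The RefSeq promoter table (GRCm38.p6) matched 1 of the 5 symbols, Loxl4, whose window runs from 250 bases before the start to 50 after it, chr19:42612757-42613056, minus strand. It is shown 5′ to 3′ as the regulatory sequence of a member that went from 4 reads in all to a steady level, with the single motif match in capitals.
Loxl4 promoter: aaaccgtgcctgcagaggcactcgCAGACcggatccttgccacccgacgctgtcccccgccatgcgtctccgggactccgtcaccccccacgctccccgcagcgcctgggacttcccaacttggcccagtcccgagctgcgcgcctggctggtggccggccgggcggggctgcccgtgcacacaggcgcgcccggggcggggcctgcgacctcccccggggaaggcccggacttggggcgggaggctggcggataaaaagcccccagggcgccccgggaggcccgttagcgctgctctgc
The window is 75.0% G and C, above 96.1% of 32851 promoters in the table (median 52.7%), and holds 32 CG pairs where the median is 7. The SMAD core CAGAC (or its reverse GTCTG) occurs at position -226 from the start, as it does somewhere in 49.6% of the promoters. The ACGTG form of the hypoxia core, the RUNX motif TGTGGT and the TATA motif TATAAA were not found on either strand of this window. Of all promoters 19.6%, 16.8% and 13.6% hold them. Only these exact letters were searched, so other forms of these motifs may be present. A match describes letters, not a bound site.

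All 5 members passed the filter (at least 1 RPKM in at least 3 libraries) through the CD51+ group only. Of the 1197 genes tested in this way, below 1 RPKM in every CD44+CD51- library, 99.5% were called higher at an adjusted p under 0.05. Of all 11741 genes tested, 24.1% were called higher in CD51+ cells and 29.7% lower, and 26.1% were higher with no overlap between the groups. All 5 members were also called beyond a 2-fold change, as were 9.74% of all genes in that direction. The count of called members is therefore near that of any genes that pass this way and says nothing particular to the family. Among the 1197 genes, the CD51+ mean of Lox was above that of 98.8%, Loxl1 of 90.1%, Loxl3 of 81.4%, Loxl2 of 60.7% and Loxl4 of 59.6%. The ratio of group means gave another order, among the 1134 of these genes not at 0 in all CD44+CD51- libraries. By that ratio Lox was above 97.0%, Loxl1 above 91.0%, Loxl4 above 82.8%, Loxl2 above 71.3% and Loxl3 above 52.0%. Such ratios rest on few CD44+CD51- reads. Of all calls 44.8% were in the higher direction, and 56.0% under median ratio scaling, which moved the median log2 change by 0.16 from -0.23. Quantile normalization moved that median by -0.13 and put 34.6% of calls in the higher direction. Each member rose by at least 1.94 under every setting that tested it.

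Within CD51+ cells the levels ran Lox, Loxl1, Loxl3, then Loxl2 and Loxl4, compared per length as RPKM. Lox was 4.47, 5.45 and 5.42 times as high as Loxl1 in replicates 1, 2 and 3. Loxl1 was 2.10, 2.50 and 2.15 times as high as Loxl3. Loxl3 was 4.37, 1.504 and 3.32 times as high as Loxl2, with no overlap of their values. Loxl2 was at 0.671, 1.85 and 0.593 times Loxl4, so the order of these neighbours turned in replicate 2 and their levels did not differ beyond the spread. In CD44+CD51- cells the means ran Loxl3, Lox, Loxl1, Loxl2, Loxl4, from 0 to 35 reads a library, and each neighbouring pair overlapped. Every Loxl3 value there lay above every Loxl2 and Loxl4 value, as did every Lox value.

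Shares of the members in the family RNA were compared between the sorted populations. No share could pass the threshold, since 3 libraries a group allow no exact permutation p below 0.1. The test therefore cannot decide whether shares differed, and the values are described. Lox made up 71.9%, 75.1% and 74.6% of the summed family RPKM in the CD51+ libraries and 38.3%, 35.6% and 17.8% in the CD44+CD51- libraries. Loxl3 made up 7.66%, 5.505% and 6.40% in CD51+ cells and 45.7%, 36.1% and 74.2% in CD44+CD51- cells. For both genes the groups did not overlap (exact permutation p = 0.1, two-sided, and 0.25 adjusted over the 5 members). The CD44+CD51- shares rest on few reads, and those of Loxl3 include the bases shared with Htra2. Shares of Loxl1, Loxl2 and Loxl4 overlapped between the groups, with exact permutation p-values of 0.4, 0.2 and 0.4. Loxl3 was 1.19, 1.02 and 4.18 times as high as Lox in the CD44+CD51- libraries and 0.107, 0.0733 and 0.0858 times as high in the CD51+ libraries.

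**Figure D2:**
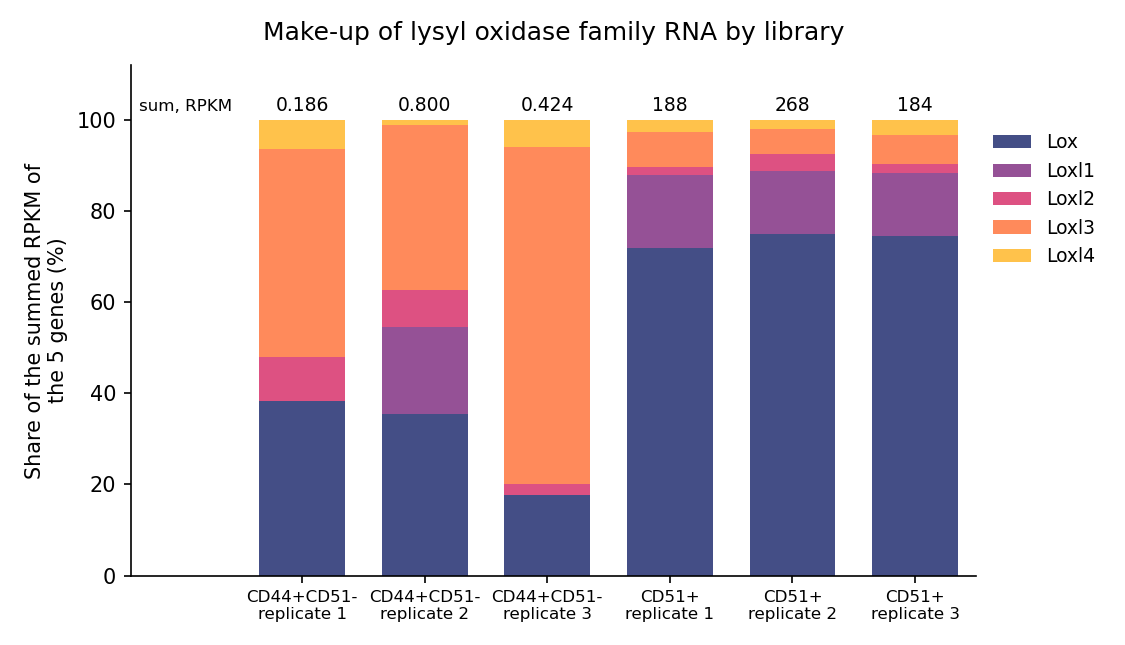
Stacked bars give each member's share of the summed RPKM of the 5 genes in each library, with the sum above each bar. Lox fills 71.9% to 75.1% of the CD51+ bars, and Loxl3 fills 36.1% to 74.2% of the CD44+CD51- bars, which rest on sums of 0.186 to 0.800 RPKM.

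The level left in CD44+CD51- cells was set against the CD51+ mean of each gene. Lox was left at 0.0450%, 0.180% and 0.0476% in replicates 1, 2 and 3, and Col1a1, the main collagen chain of bone, at 0.0504%, 0.206% and 0.0240%. Both were highest in replicate 2. The median of the 8 stromal markers was 0.112%, 0.664% and 0.0780%. Loxl3, left at 0.623%, 2.11% and 2.30%, was above it in each library, with the bases shared with Htra2 included. Loxl2, left at 0.326%, 1.17% and 0.172%, was also above it in each library. Loxl1 was below it, at 0%, 0.493% and 0%, as was Lox. Loxl4 was at 0.215%, 0.172% and 0.455%, above that median in replicates 1 and 3. It was the member for which replicate 2 was the lowest, from 1 read. Lox amounted to 1.68%, 1.64% and 3.72% of Col1a1 RPKM in the CD44+CD51- libraries and to 1.81%, 2.03% and 1.75% in the CD51+ libraries.

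**Figure D3:**
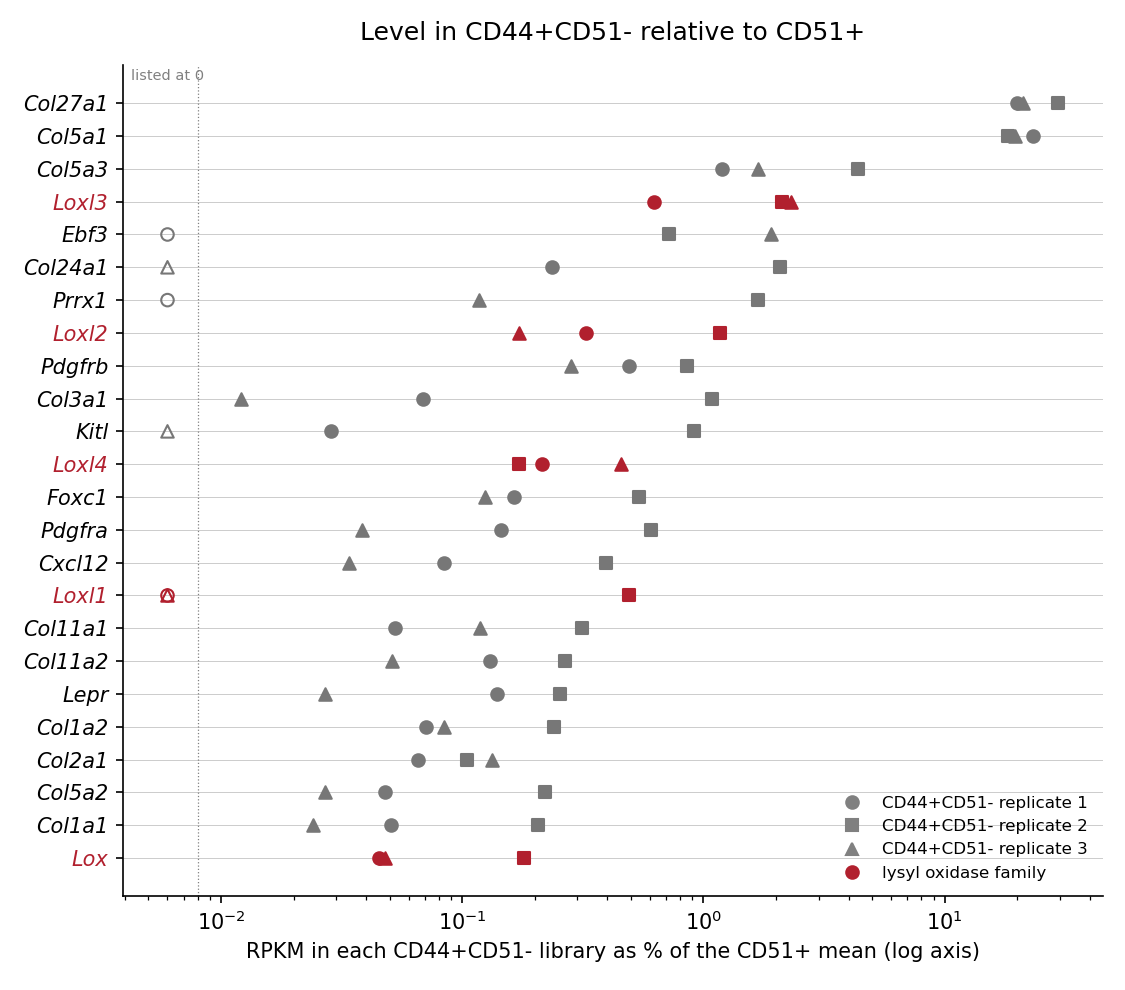
For each gene, points give the RPKM of the 3 CD44+CD51- libraries as a percentage of the CD51+ mean, on a log axis, for the lysyl oxidases (red) and for the fibrillar collagens and the 8 mesenchymal stromal markers (grey). Lox has a mean of 0.0909%, next to Col1a1 at 0.0936%, while Loxl3 lies at 1.68%. Without replicate 2 these means are 0.0463%, 0.0372% and 1.46%, and Lox is at rank 6 from the lowest of 24 genes.

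Lox is also known in mouse megakaryocytes, so markers of that lineage were set beside it. The sum of 9 megakaryocyte markers was 301, 292 and 1092 RPKM in the CD44+CD51- libraries and 165, 131 and 2491 in the CD51+ libraries. It was thus far higher in both libraries numbered 3. Lox in CD44+CD51- replicate 3 was at 0.0753 RPKM, next to 0.0712 in replicate 1, and in CD51+ replicate 3 it was at 138, between 135 in replicate 1 and 201 in replicate 2. The part of megakaryocyte RNA in these levels was not tested.

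Of 11 fibrillar collagen genes 10 were tested and all 10 were higher in CD51+ cells, where 24.1% of all genes were higher. Of the 10, 7 were tested through CD51+ alone. Their median log2 change was 6.66 over all 10, where that of all genes was -0.23. Col1a1 changed by 10.30, Col1a2, its partner chain, by 9.52 and Col5a2, a chain of the collagen that starts fibrils, by 7.12. Family RPKM per 1000 RPKM of fibrillar collagen was 6.71, 17.0 and 18.3 in CD44+CD51- libraries and 14.97, 16.3 and 13.96 in CD51+ libraries. The groups overlapped in that ratio, and the difference of 1.08 was within the replicate spread (exact permutation p = 1.0). The collagens behind it were unlike between the groups. Col5a1, also in this list, held 19.4 of 27.7, 15.3 of 47.1 and 16.3 of 23.1 RPKM in CD44+CD51- replicates 1, 2 and 3. In CD51+ cells its mean was 83.6 RPKM, against 8424 for Col1a1. The overlap thus does not show a constant ratio to collagen, and the ratio without Col5a1 was not tested.

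Elastic fibre genes were higher for 7 of 8 tested out of 13, where 24.1% of all genes were higher. Of the 8, 6 were tested through CD51+ alone, and the median log2 change of the 8 was 4.26. Fbln5, a fibulin that binds Loxl1, went from 0.387 ± 0.451 to 169 ± 28.7 RPKM. Efemp2, the fibulin that brings Lox to elastic fibres, went from 0.324 ± 0.114 to 83.5 ± 35.3. Mfap2, a microfibril protein, rose by 5.13 on the log2 scale. Emilin2, an elastin-associated glycoprotein, was the member that fell, from 46.8 ± 4.68 to 27.3 ± 2.53 (adjusted p = 0.0044). Eln, the elastin gene itself, looked up after its list had been counted, was at 0, 0.0434 and 0 in CD44+CD51- libraries and at 0.213, 0.608 and 0.387 in CD51+ libraries, too low to be tested.

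Genes for maturation and binding of the enzymes were higher for all 8 tested of 11, where 24.1% of all genes were higher. Of the 8, 5 were tested through CD51+ alone, and the median log2 change of the 8 was 3.35. Bmp1, the protease that frees active Lox from its propeptide, went from 6.48 ± 1.57 to 94.7 ± 24.5 RPKM and was picked after its values were seen. Pcolce, an enhancer of that protease on procollagen, changed by 7.37 on the log2 scale. Adamts2, a procollagen protease, changed by 5.86, and Postn, which encodes the matrix protein periostin, by 3.995. Thbs1, the matrix glycoprotein thrombospondin 1, also in the list and picked later, was no longer called without CD44+CD51- replicate 1 (adjusted p = 0.0537), CD51+ replicate 2 (0.0582) or CD51+ replicate 3 (0.0684).

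Lysyl hydroxylases modify collagen lysines before lysyl oxidases act. In this list 6 of 7 tested out of 8 were higher and none was lower, with a median log2 change of 3.64, where 24.1% of all genes were higher. Tested through CD51+ alone were 4 of the 7, all called. Fkbp10, a chaperone needed for telopeptide hydroxylation, went from 0.244 ± 0.319 to 119 ± 22.2 RPKM. P3h4, a partner of lysyl hydroxylase 1, went from 0.235 ± 0.189 to 52.1 ± 19.2. Plod2, the telopeptide lysyl hydroxylase, went from 0.129 ± 0.0894 to 31.0 ± 6.81. Colgalt1, a collagen galactosyltransferase, stood at 67.3 ± 47.9 and 62.3 ± 44.2 (adjusted p = 0.884), was not called and was picked after its values were seen.

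Of 10 copper supply genes, all tested, 1 was higher and 2 were lower, where 24.1% of all genes were higher and 29.7% lower. The median log2 change of the 10 was -0.14. The rise was that of Slc31a2, a low-affinity copper transporter, from 4.68 ± 2.72 to 30.4 ± 2.07 RPKM (adjusted p = 0.00073). Mt1 and Mt2, metallothioneins that bind copper and zinc, fell by 1.20 and 1.16 on the log2 scale. Slc31a1, the main copper importer, was at 25.6 ± 1.54 and 25.5 ± 2.02. Atp7a, the pump that loads copper into lysyl oxidases in the secretory route, was at 0.864 ± 0.148 and 1.65 ± 0.531 (adjusted p = 0.054). Atp7b, its liver-type relative, was at 27.7 ± 21.4 and 7.96 ± 6.11 (adjusted p = 0.0535). Slc31a1, Atp7a and Atp7b were picked after their values were seen. With the replicate number as a block, Atp7a was called higher (adjusted p = 0.0218), which made 2, and Atp7b lower (3.15e-05), which made 3. Without CD51+ replicate 1 both were also called (0.0161 and 0.0203), and Atp7b without CD44+CD51- replicate 2 (0.0450).

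Other copper enzymes of the secretory route were higher for all 4 tested of 9, each tested through CD51+ alone, where 24.1% of all genes were higher. Cp, the ferroxidase ceruloplasmin, went from 0.105 ± 0.1002 to 64.4 ± 13.3 RPKM, Sod3, the extracellular superoxide dismutase, changed by 3.42 on the log2 scale and Heph, a membrane ferroxidase, by 2.35. The count was 2 when a minimum of 5 RPKM was asked for. The copper amine oxidase genes Aoc1, Aoc2 and Aoc3, named after their values were seen, did not exceed 1.21 RPKM in any library.

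Among regulators of the family, 6 of 11 TGF-beta and hypoxia genes tested, out of 12, were higher and none was lower, with a median log2 change of 0.85, where 24.1% of all genes were higher. Tested through CD51+ alone were 3 of the 11, Ccn2, Epas1 and Tgfb3, and of the other 8 genes 3 were higher. Tgfbr1, a TGF-beta receptor picked later, was also called with the replicate block (adjusted p = 0.0400), which made 7. It was called as well without CD44+CD51- replicate 1 (0.0286) and without CD51+ replicate 1 (0.0475). Under median ratio scaling both Tgfbr1 (0.0276) and Smad3 (0.0293), also picked later, were called, which made 8. Ccn2, a matrix factor induced by TGF-beta and listed as Ctgf, was at 171, 35.9 and 41.4 RPKM in CD51+ libraries and at most 0.369 in CD44+CD51- libraries. Epas1, which encodes HIF-2α, changed by 3.54 on the log2 scale and Tgfb3 by 2.80. Of the Snail, Zeb and Twist factors, among which the Snail protein is a known partner of LOXL2 and LOXL3 in human cells, 3 of 5 tested out of 6 were higher and none was lower. Those 3, Snai2, Twist1 and Snai1, were tested through CD51+ alone, and of the other 2 none was called. Zeb2, picked later, was called higher with the replicate block (adjusted p = 0.0188), which made 4. The same held under median ratio scaling (0.0478) and without CD51+ replicate 1 (0.0203). Snai2 changed by 5.68, Twist1 by 4.296 and Snai1 by 2.08.

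**Figure D4:**
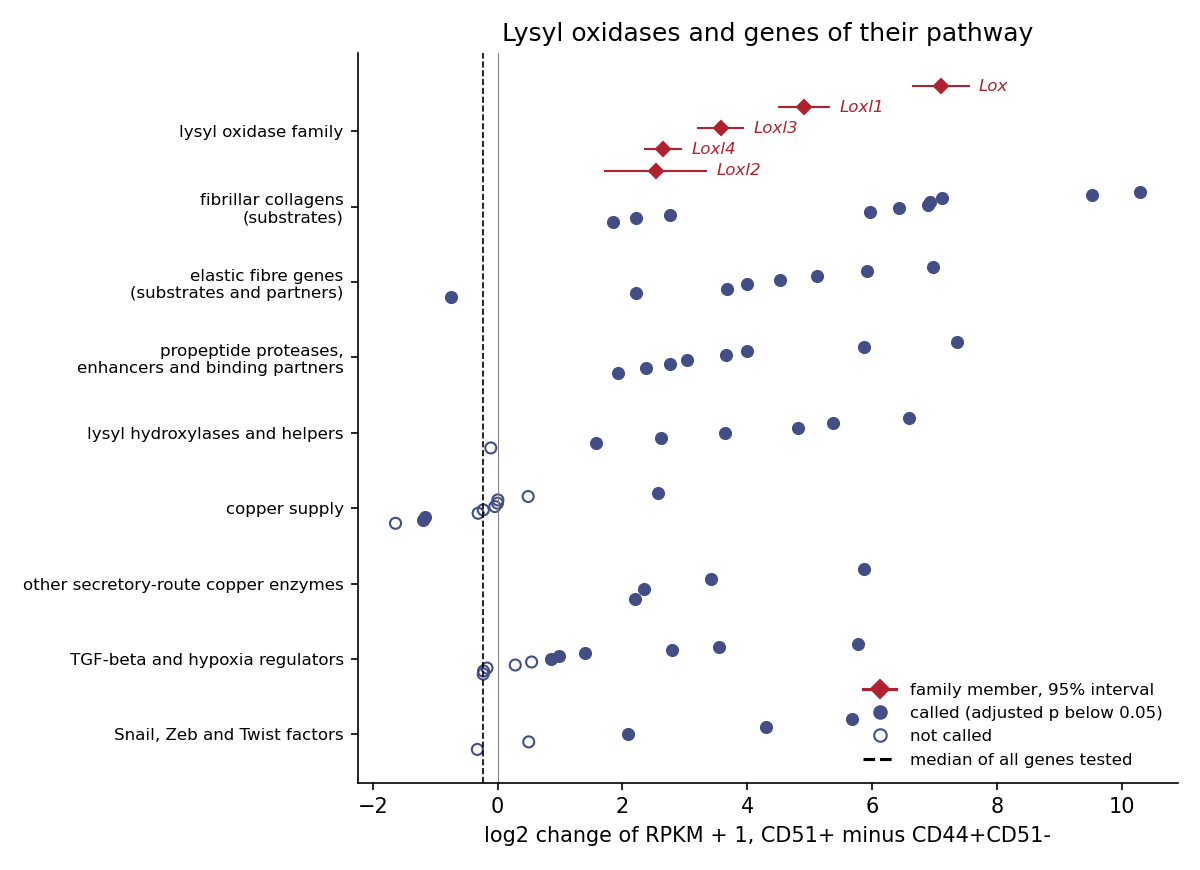
Log2 change of RPKM + 1, CD51+ minus CD44+CD51-, for the 5 lysyl oxidases with 95% intervals and for tested genes of the 8 lists, with filled points for genes past an adjusted p of 0.05. The lysyl oxidases lie between 2.53 and 7.10, and the fibrillar collagens between 1.85 and 10.30. Copper supply genes lie between -1.64 and 2.57, on both sides of the median of all genes at -0.23.

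For each member the tested genes with the most similar values were found by the root mean square difference of log2(RPKM + 1) over the 6 libraries. Nearest to Lox were Col5a2 (0.10), Lepr (0.13) and Pth1r (0.17). Loxl1 was nearest to an entry whose symbol a spreadsheet had turned into a date (0.07), followed by Wisp1 (0.10) and Srpx2 (0.11). Closest to Loxl2 were Ddr1 (0.14), H2-M9 (0.15) and Panx3 (0.15), all highest in CD51+ replicate 2. Dse (0.13), Hoxa10 (0.16) and Fkbp14 (0.17) came nearest to Loxl3, and Akr1b8 (0.09), Angpt2 (0.11) and Slco1a5 (0.13) to Loxl4.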

How the data were processed

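The deposited table gave RPKM per gene and library as the authors computed it, per the file headers, with 1 column per sample and 0 other columns. The submitters' processing notes name GRCm38 and edgeR 3.16.5, and the aligner, counter and annotation are not given in the sources used here. Whether library sizes were adjusted is not stated. Lengths and positions came from GENCODE M21 (GRCm38). From them the library size behind the RPKM was estimated at 12197833 to 32517059 reads, at which 89.7% of 32368 values of up to 20 reads were whole within 0.05 read. Recovered reads summed over genes came to 18163170 to 49847892, above that size in each library, for a reason not settled here, so read counts, intervals and limits rest on the estimated steps. Reads of members used a length within 3% of GENCODE's that made all 6 values whole (4810 bases for Lox, 3338 for Loxl1, GENCODE's own for the others).

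Genes with RPKM of at least 1 in at least 3 of 6 libraries were compared by limma 3.58.1 in R 4.3.3 on log2(RPKM + 1) with its mean-variance trend. The two-sided p-values of 11741 genes were adjusted by Benjamini-Hochberg and read at a threshold of 0.05. This pseudocount understates changes of low genes. Fits were checked on simulated data. Sums, shares and ratios were compared by exact permutation. Named genes were the members, the 3 largest called changes of each list, called genes of its rarer direction, the sort genes, genes within 5000 bases of a member and the 3 genes most alike to each member, and others are marked as picked later. Values without CD44+CD51- replicate 2 were partly added after seeing the data. Members and lists were chosen with earlier results of these data known. Libraries with the same number deviated together from their group means (r = 0.62, 0.29 and 0.52 across genes), although CD51+ replicate 2 correlated with CD44+CD51- replicate 3 at 0.32 and CD51+ replicate 3 with CD44+CD51- replicate 2 at 0.20, and the replicate number was fitted as a block as an alternative.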

Additional observations from a re-analysis of the deposited data

How the results depend on the processing

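All 5 members stayed higher in CD51+ cells and past the threshold in every alternative that tested them, with adjusted p-values of at most 8.4e-05 for Lox, 9.9e-05 for Loxl1, 0.0069 for Loxl2, 0.00014 for Loxl3 and 0.00022 for Loxl4. All 5 had passed the main filter through the CD51+ group only. Among the 1197 genes below 1 RPKM in every CD44+CD51- library, 99.5% were called higher in the main setting. Staying past the threshold thus says little about the family. A minimum of 5 RPKM in 3 libraries left Loxl2 and Loxl4 untested. With a pseudocount of 0.1 the log2 changes were 9.43 for Lox, 7.81 for Loxl1, 5.27 for Loxl2, 5.46 for Loxl3 and 5.58 for Loxl4. Leaving out each library in turn gave 6.91 to 7.20 for Lox, 4.78 to 5.04 for Loxl1, 2.10 to 2.77 for Loxl2, 3.49 to 3.67 for Loxl3 and 2.59 to 2.71 for Loxl4. With the replicate block, adjusted p was 1.1e-07 for Lox and 0.00015 for Loxl2, the block changed no member's call, Atp7a, Atp7b, Tgfbr1 and Zeb2 gained a call, and 3265 genes were higher and 4854 lower. The 5 RPKM minimum called 1613 genes higher, and 2 other copper enzymes, since fewer genes were tested. Copper supply genes called higher numbered 2 under median ratio scaling and under the replicate block, and 1 to 2 with a library left out. Quantile normalization called 1 Snail, Zeb and Twist factor lower (Zeb1, adjusted p = 0.013). The cause was not tested for these scalings. Family RPKM per 1000 RPKM of fibrillar collagen differed by 1.08, and by -2.57 to 3.25 with a library left out, turning negative at -2.57 without CD44+CD51- replicate 1. CD44+CD51- values rest on 0 to 35 reads, so their ratios and shares are imprecise.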
